A study of Homo sapiens with 3 samples.

Results

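SOX4 sites that recurred between libraries at the ends of protein-coding genes formed 271 regions, of 6199 regions in all, in BT549 cells, a line established from a human breast tumour that lacks hormone receptors and HER2 (triple-negative). The members were chosen by the positions of ChIP-seq summits, the single bases at which the authors' peak caller placed the top of each peak. Summits of the 3 libraries were joined where gaps were at most 200 bp. A region was kept when at least 2 libraries contributed, when it lay on an autosome other than 5, 8 and 9, and when its midpoint was within 1 kb of either end of a coding gene. The number of regions, their scores, library combinations and distances to gene ends are therefore descriptions and carry no test. Which end of the gene was nearer, and how many coding genes lay within reach beyond the first, were not used, and these were tested between regions.

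The 3 libraries, replicates 1, 2 and 3, form 1 group of unmodified BT549 cells, each at passage 5, precipitated with an Abcam antibody against SOX4 (ab86809) after fixation with DSG and then formaldehyde. Whether they came from separate cultures is not given in the sources used here, so their spread may be technical. No input, IgG or SOX4-depleted library was analysed here, and peaks were called per library. The lists held 1368, 1713 and 4430 summits, of which 756, 738 and 2801 lay on the 19 autosomes used. Read depth is unknown, no expression was measured, and the intervals given below are exact 95% binomial intervals that cover counting error only.

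SOX4 is a transcription factor of the high-mobility-group box family, whose members bend DNA and bind short motifs built around AACAAT and ACAAAG. It is known for roles in development, in transforming growth factor beta and Wnt signalling, and in the mesenchymal state of breast cancer cells. The start of a coding gene is usually flanked by a nucleosome-poor promoter that many factors share.

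Of the 15 motifs looked for, the one whose share differed most between these regions and all promoters was TCTCGCGAG, 9 of the 10 letters of the palindrome TCTCGCGAGA. This CGCG element is known from promoters of broadly expressed genes, and the protein BANP is known to bind it. The stretches below show it in capitals in 6 members of all 3 libraries. They come from the 8 members of 3 libraries in which the element and 25 bases on each side lay wholly before the gene start and within known sequence, taken by the distance from midpoint to element, without the pair that overlapped a neighbouring coding gene. All are upstream of the start, 5′ to 3′ on the strand of the gene, from RefSeq GRCh38.p14, with ARF3 at chr12:48957540-48957599 (- strand), MAPK14 at chr6:36027729-36027788 (+ strand), ZNF286A at chr17:15699531-15699590 (+ strand), HSPH1 at chr13:31162432-31162491 (- strand), MRPL57 at chr13:21176576-21176635 (+ strand) and NOL11 at chr17:67717860-67717919 (+ strand).

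ARF3: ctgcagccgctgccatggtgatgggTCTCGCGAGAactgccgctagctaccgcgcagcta
MAPK14: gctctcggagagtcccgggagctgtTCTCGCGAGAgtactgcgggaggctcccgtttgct
ZNF286A: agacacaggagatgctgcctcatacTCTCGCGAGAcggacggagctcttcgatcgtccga
HSPH1: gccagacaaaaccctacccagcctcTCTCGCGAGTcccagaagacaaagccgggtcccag
MRPL57: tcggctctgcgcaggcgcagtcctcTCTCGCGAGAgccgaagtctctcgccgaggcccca
NOL11: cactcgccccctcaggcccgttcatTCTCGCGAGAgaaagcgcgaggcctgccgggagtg

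The element began 87 bp before the start of ARF3, 54 bp before MAPK14, 196 bp before ZNF286A, 78 bp before HSPH1, 57 bp before MRPL57 and 51 bp before NOL11. HSPH1 carried 9 of the 10 letters and the other stretches the whole palindrome. The HSPH1 stretch also holds a SOX core, ACAAAG, between the element and the start. That core lies between the summits of replicates 2 and 1, which were 61 and 46 bp before the start. At NOL11, which encodes a protein of ribosome biogenesis, the summits of replicates 1 and 2 lay 58 and 46 bp before the start, beside the element, and that of replicate 3 lay 134 bp after it. At MRPL57, a mitochondrial ribosomal protein gene, they lay 70 and 48 bp before and 106 bp after the start. ARF3, a small GTPase gene of the Golgi, had all 3 summits upstream, at 56, 20 and 145 bp.

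The promoter of MTF2, a subunit of the Polycomb repressive complex PRC2, is shown as an example without a CGCG element in its window. Its 3 summits fell within 88 bp of each other. The windows of CCNJ and GNL3 also lacked the element and had closer summits, within 68 and 69 bp. The CCNJ window did hold TCGCGAGA, the last 8 letters of the palindrome, within the span of its summits. The 250 bases of MTF2 end 1 base before the gene start (chr1:93079033-93079282, GRCh38.p14, + strand). The capitals mark the span from the outermost summit to the innermost. The MTF2 window holds 1 SOX core, ACAAAG on the other strand, at 133 to 128 bp before the start, outside that span.

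MTF2: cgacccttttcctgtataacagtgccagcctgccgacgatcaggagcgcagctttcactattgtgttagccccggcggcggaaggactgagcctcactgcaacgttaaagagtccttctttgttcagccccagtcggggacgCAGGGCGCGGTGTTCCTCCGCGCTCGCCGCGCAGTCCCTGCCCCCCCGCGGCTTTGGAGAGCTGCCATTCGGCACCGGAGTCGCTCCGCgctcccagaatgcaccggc

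The 271 regions lay near 336 coding genes, 2.01% of the 16729 on the 19 autosomes, and 53 regions of all 3 libraries lay near 66 genes (0.395%). Of all 2093 regions within 1 kb of a coding gene end, 12.9% were members. The other 1822 came from 1 library each, 1532 of them (84.1%) from replicate 3, and serve as the comparison below. Replicates 1 and 2 alone shared 38 members, replicates 1 and 3 shared 101 and replicates 2 and 3 shared 79. Replicate 1 had 14% of its summits in members, replicate 2 had 9.92% and replicate 3 had 5.26%, and no member held more than 1 summit of a library. None of the 8 immune genes that the series design names (HLA-B, HLA-C, IFIH1, IRF7, ISG15, PSMB9, TAP1 and TAP2) was near a member.

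Most members lay at gene starts. Strand was known for the nearest gene of 244 members, and 235 of these (96.3%, 93.1 to 98.3%) were nearest to the gene start. Regions of 1 library had 1569 of 1605 (97.8%, 96.9 to 98.4%), and the difference of -1.45 percentage points did not pass Fisher's exact test (two-sided, adjusted p = 0.302). Counting only regions within 500 bp gave a difference of -2.15 points (exact adjusted p = 0.0483), so the call depended on the distance used. These tests take regions of 1 group of libraries as units and say nothing of the spread between cultures. Most regions of 1 library came from replicate 3, so sharing cannot be told apart from library of origin. The 9 exceptions lay nearer to the other end of H3C14, H4C2, H2AC15, OR2T1, TMEM253, NRTN, EHD2, SPON2 and LOC128031837. The own starts of H3C14, H4C2, H2AC15 and LOC128031837 were also within 1 kb, at 826.5, 276.5, 327 and 372.5 bp from the midpoints. The start of H2BC15, a histone gene, lay within 1 kb of the H2AC15 region, and that of ZNF219, a zinc finger gene, within 1 kb of the TMEM253 region.

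Over all their member summits, which come from different members, replicate 3 had the median farthest into the gene. The median position of member summits was 56 bp after the start in replicate 1, 49 bp in replicate 2 and 130 bp in replicate 3. Summits before the start made up 40.5%, 38.8% and 23.9% of those of replicates 1, 2 and 3. Where 2 libraries shared a member, the summit of replicate 3 lay a median of 24.5 bp downstream of that of replicate 1 (134 members) and 34 bp downstream of that of replicate 2 (113 members). Replicates 1 and 2 differed by a median of -3 bp along the gene (80 members). The summit of replicate 3 was the downstream one in 56% (47.1 to 64.5%) of the first set and 56.6% (47 to 65.9%) of the second. Both intervals included equal shares upstream and downstream, and the offsets themselves were not tested. In members with the CGCG element, median summit positions from the start were -26, -32.5 and 100 bp in replicates 1, 2 and 3. In members without it they were 107, 75 and 136 bp. The members differ between libraries, and this split was not tested.

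**Figure D1:**
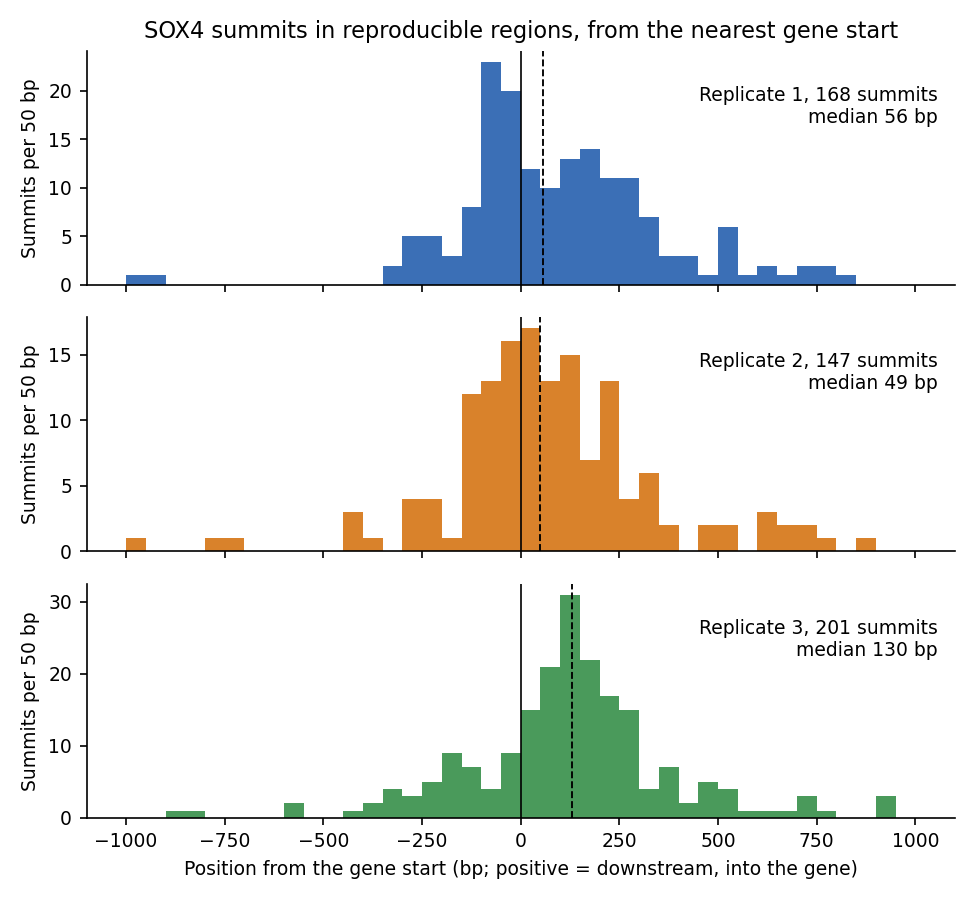
Positions of member summits relative to the nearest gene start (x axis, bp, positive into the gene) as summits per 50 bp (y axis), for the members nearest to a start, with the start as a solid line and the median as a dashed line. The medians are 56, 49 and 130 bp in replicates 1, 2 and 3, and replicate 3 has the fewest summits before the start.

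The CGCG element was found in unlike shares of members by library combination. It was looked for on both strands within 300 bp of each midpoint, as far as promoter sequence was known, and 42 members (15.5%, 11.4 to 20.4%) had it, 29 of them as the whole palindrome. Members of replicates 1 and 2 alone had it in 19 of 38 (50.0%, 33.4 to 66.6%) and members of all 3 libraries in 16 of 53 (30.2%, 18.3 to 44.3%). Members of replicates 1 and 3 had it in 5 of 101 (4.95%, 1.63 to 11.2%), and those of replicates 2 and 3 in 2 of 79 (2.53%, 0.308 to 8.85%). Members without known sequence counted as lacking it, and known sequence was unequal. The whole window within 100 bp of the midpoint was known for 15 of the 38 and 18 of the 53. It was known for 11 of the 101 and 7 of the 79, and the part of this in the contrast was not tested. The library combination was part of how members were chosen. The count of the element was added after the motif shares had been seen, so it is given without a test.

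**Figure D2:**
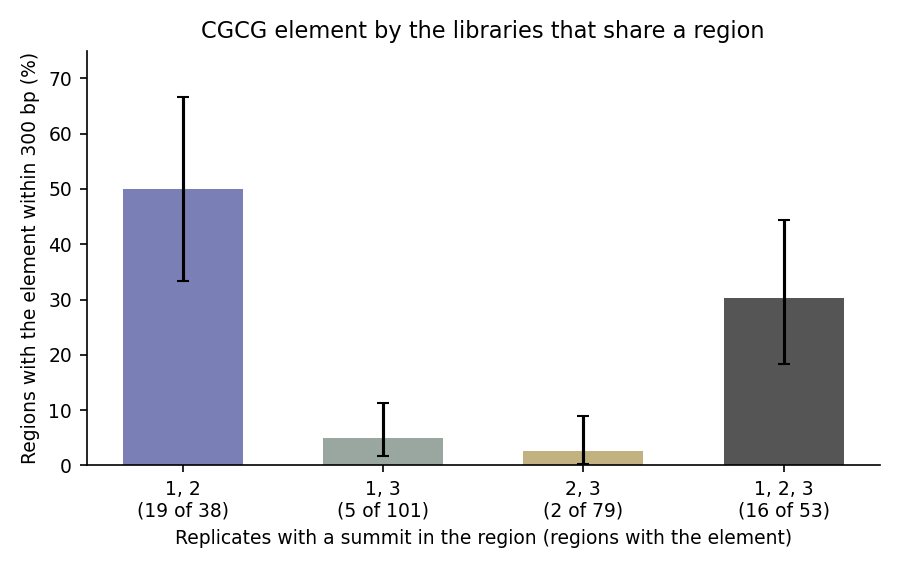
Share of members with TCTCGCGAG within 300 bp of the midpoint (y axis, percent) by the replicates that share the region (x axis), with exact 95% intervals as error bars. The share is 50.0% where replicates 1 and 2 alone meet and at most 4.95% where replicate 3 meets only 1 of them. Members without known sequence count as lacking the element, and known sequence is unequal between the combinations.

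Among elements in known sequence, summits of replicates 1 and 2 also lay closer to the element than those of replicate 3. Known sequence ran from 250 bases before to 50 bases after annotated starts, and the median replicate 3 summit lay 130 bp after the start. Elements near many replicate 3 summits could therefore not be seen, and 19 of the 42 members had no replicate 3 summit. The part of this in the contrast was not tested. The median distance from summit to element was 27 bp in replicate 1 (40 members), 38.5 bp in replicate 2 (37 members) and 172 bp in replicate 3 (23 members). Within 50 bp lay 60%, 64.9% and 13% of them. Members with the element scored a median of 11.2 in replicate 1 against 5.99 for those without it, and 7.63 against 5.26 in replicate 2. In replicate 3 the medians were 5.83 and 6.05, so the score did not move with the element there. The score is the −log10 of a p-value or q-value that the authors gave each peak and was compared only within a list.

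**Figure D3:**
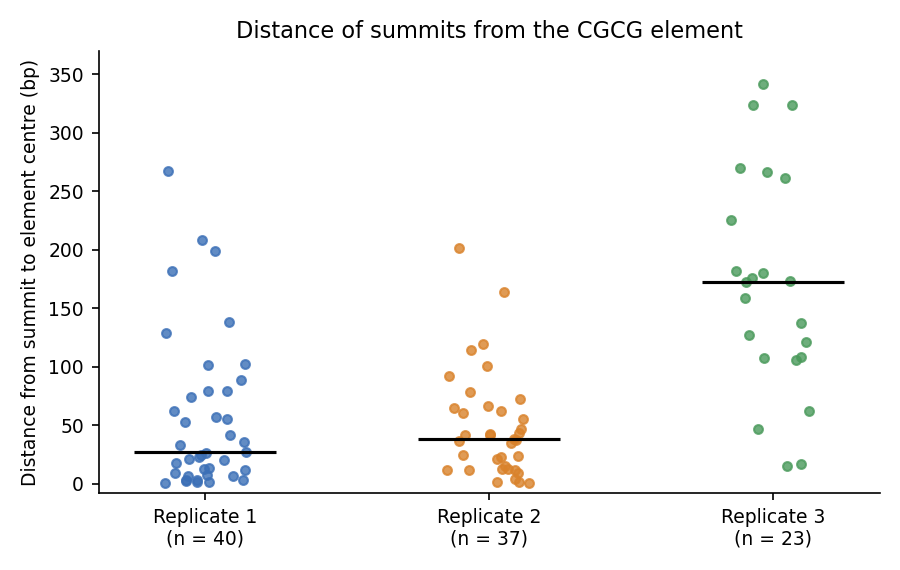
Distance from each summit to the centre of the nearest CGCG element (y axis, bp) in the 42 members that have one, by replicate (x axis), with 1 point per summit and the median as a bar. Most points of replicates 1 and 2 lie under 50 bp and most of replicate 3 lie over 100 bp. Elements could be seen only in known promoter sequence, which ended 50 bases after annotated starts.

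Seen from the promoters, 144 of 13634 coding genes with promoter sequence (1.06%) carried the element between 250 bases before and 50 bases after the outermost start. Of these 144, 69 (47.9%, 39.5 to 56.4%) had a summit of replicate 1 within 1 kb of the start, against 2.33% of the promoters without the element. For replicate 2 the shares were 37.5% (29.6 to 45.9%) and 1.93%, and for replicate 3 they were 29.9% (22.5 to 38.0%) and 12.5%. A member lay at the start of 47 of the 144 (32.6%, 25.1 to 40.9%) and of 1.77% of the promoters without the element.

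The same element was frequent when only members were compared with regions of 1 library. It was in 47 of 286 member promoters (16.4%, 12.3 to 21.2%), in 2.57% (1.86 to 3.44%) of 1676 promoters with a region of 1 library and in 1.06% of all. Within 100 bp of the midpoint, for regions whose whole window had sequence, it was in 18 of 51 members (35.3%, 22.4 to 49.9%) and 17 of 234 regions of 1 library (7.26%, 4.29 to 11.4%). The libraries contributed unequally, with 11 of 45 regions of replicate 1 alone (24.4%, 12.9 to 39.5%), 6 of 30 of replicate 2 alone (20%, 7.71 to 38.6%) and 0 of 159 of replicate 3 alone, which allows at most 2.29% by the exact interval. Members of replicates 1 and 2 alone had it in 12 of 15 (80%, 51.9 to 95.7%) and those of all 3 libraries in 6 of 18 (33.3%, 13.3 to 59%). It was in 0 of 11 members of replicates 1 and 3 (exact upper limit 28.5%) and 0 of 7 of replicates 2 and 3 (41%). Without replicate 1 the shares were 22.7% of members and 8.92% of regions of 1 library, and without replicate 2 they were 14.8% and 10.8%, with intervals that overlapped. Without replicate 3 they were 58.3% and 16.2%.

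SOX cores were about as frequent in member promoters as in all promoters, except for AACAAT, which was less frequent. AACAAT was in 3.15% of member promoters (1.45 to 5.89%), in 4.71% (3.75 to 5.84%) of promoters with a region of 1 library and in 7.19% of all promoters. The core ACAAAG was in 14% of member promoters (10.2 to 18.6%), in 9.84% (8.46 to 11.4%) of promoters with a region of 1 library and in 12.9% of all promoters. Any of the 3 cores looked for, on either strand (ACAAAG, the similar motif ACAATG, and the motif AACAAT), was in 22.4% of member promoters (17.7 to 27.7%), in 18.2% of promoters with a region of 1 library and in 23.1% of all promoters. Near the midpoints a SOX core was in 7 of 51 members (13.7%, 5.70 to 26.3%) and 7.69% (4.62 to 11.9%) of regions of 1 library, and in members of all 3 libraries in 4 of 18 (22.2%, 6.41 to 47.6%). The ETS motif CCGGAAG was in 22.0% of member promoters and in 22.4% of those with 1 library, both above the 14.3% of all promoters. The cyclic AMP response element TGACGTCA was in 5.59%, 3.82% and 2.64% of the same groups, and part of the ZNF143 motif, CTACAATTC, in 1.75%, 0.656% and 0.447%. Promoters of members had a median GC content of 64.8%, against 65.3% with 1 library and 62.7% over all promoters. These are letter matches in promoter windows, and 15 motifs were looked for, each on both strands, where the SOX cores can overlap each other.

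Members of 3 libraries were ranked by the worst of their 3 ranks by score, each taken as a percent of its list. The first was the shared promoter of MRPL57 and SKA3, a kinetochore gene, on chromosome 13 from 21176588 to 21176764. Its scores were 31.2, 25.6 and 10.6 in replicates 1, 2 and 3. MTF2 had 22.3, 20.9 and 11.7. RBM39, a splicing factor gene, had the highest score of any member in replicates 1 and 2, 80.2 and 40.4, with 8.97 in replicate 3, on chromosome 20 from 35742325 to 35742378. TMEM18, a gene of a nuclear envelope protein, scored 18.6, 15.9 and 8.64. OR2T1, an olfactory receptor gene, came next with 14.9, 12.4 and 12.8, from a region 461.5 bp from the end away from its start. ARF3 scored 23.3, 13.8 and 7.52. DENR, whose product acts in translation reinitiation, scored 21.4, 25.8 and 6.63. Of the 20 best-ranked regions, 8 had the CGCG element within 300 bp, against 16 of all 53 members of 3 libraries (30.2%, 18.3 to 44.3%).

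Among the other best-ranked members, HNRNPH3, an RNA-binding protein gene, scored 8.62, 9.62 and 7.78, and UPF3A, a gene of nonsense-mediated decay, scored 18.2, 10.8 and 6.26. HSPH1, a heat shock protein gene, scored 13, 12 and 5.29. RFC3, a subunit of the clamp loader of DNA replication, scored 6.89, 6.03 and 5.36 with a midpoint 17 bp after the start. FBXL5, an iron-sensing ubiquitin ligase subunit gene, scored 25, 7.27 and 5.36. ITGB1, which encodes the beta 1 integrin chain, scored 8.34, 6.42 and 5.51. The rest were ZNF286A, TMEM79, PRDX1, SFT2D2, ADNP, SNX5 and CYB5D1, all nearest to a gene start or to a gene of unknown strand.

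Scores of members were modest. Their medians were 6.51, 5.74 and 6.05 in replicates 1 to 3, and scores over 20 were held by 11, 4 and 1 members. In the 91 members with both, the scores of replicates 1 and 2 had a Spearman correlation of 0.63. It was 0.14 over the 154 members of replicates 1 and 3 and 0.27 over the 132 of replicates 2 and 3. These points come from 1 cell line and were chosen for being shared, so the values are descriptions. At the edge of the distance rule, LOC124904588 at 993.5 bp and PRDX1 at 999 bp were inside, and GSK3B at 1023 bp and QKI at 1035 bp were outside.

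Replication-dependent histone genes, which supply histones for newly made DNA, had the highest share of any of the 46 gene lists. A member lay near 18 of 69 (26.1%, 16.3 to 38.1%), through 15 regions on chromosomes 1 and 6. None of the 18 had the CGCG element, against 55 of all 336 member genes. Most of the 15 regions joined replicate 3 with only 1 other library, where at most 4.95% of members had the element. Members without known sequence counted as lacking it. Of the 18 genes, only H4C12 and H4C14 had all 3 libraries. H4C11 had the highest replicate 3 score of any member, 20.7, with 4.54 in replicate 2 and no summit in replicate 1. H4C15 scored 8.82 and 12.3 in replicates 1 and 3, and H1-2, a linker histone gene, 6.24 and 8.47. The H2A and H2B genes H2AC20 and H2BC21 shared a start-to-start gap of 236 bp, and H2AC6 and H2BC4 one of 246 bp. H2AC18 with H2AC19 and H4C14 with H4C15 are near-identical copies, so which copy gave the reads is uncertain. Counting summits of any library, 46 of the 69 genes (66.7%) had a region, against 13.9% of all coding genes.

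**Figure D4:**
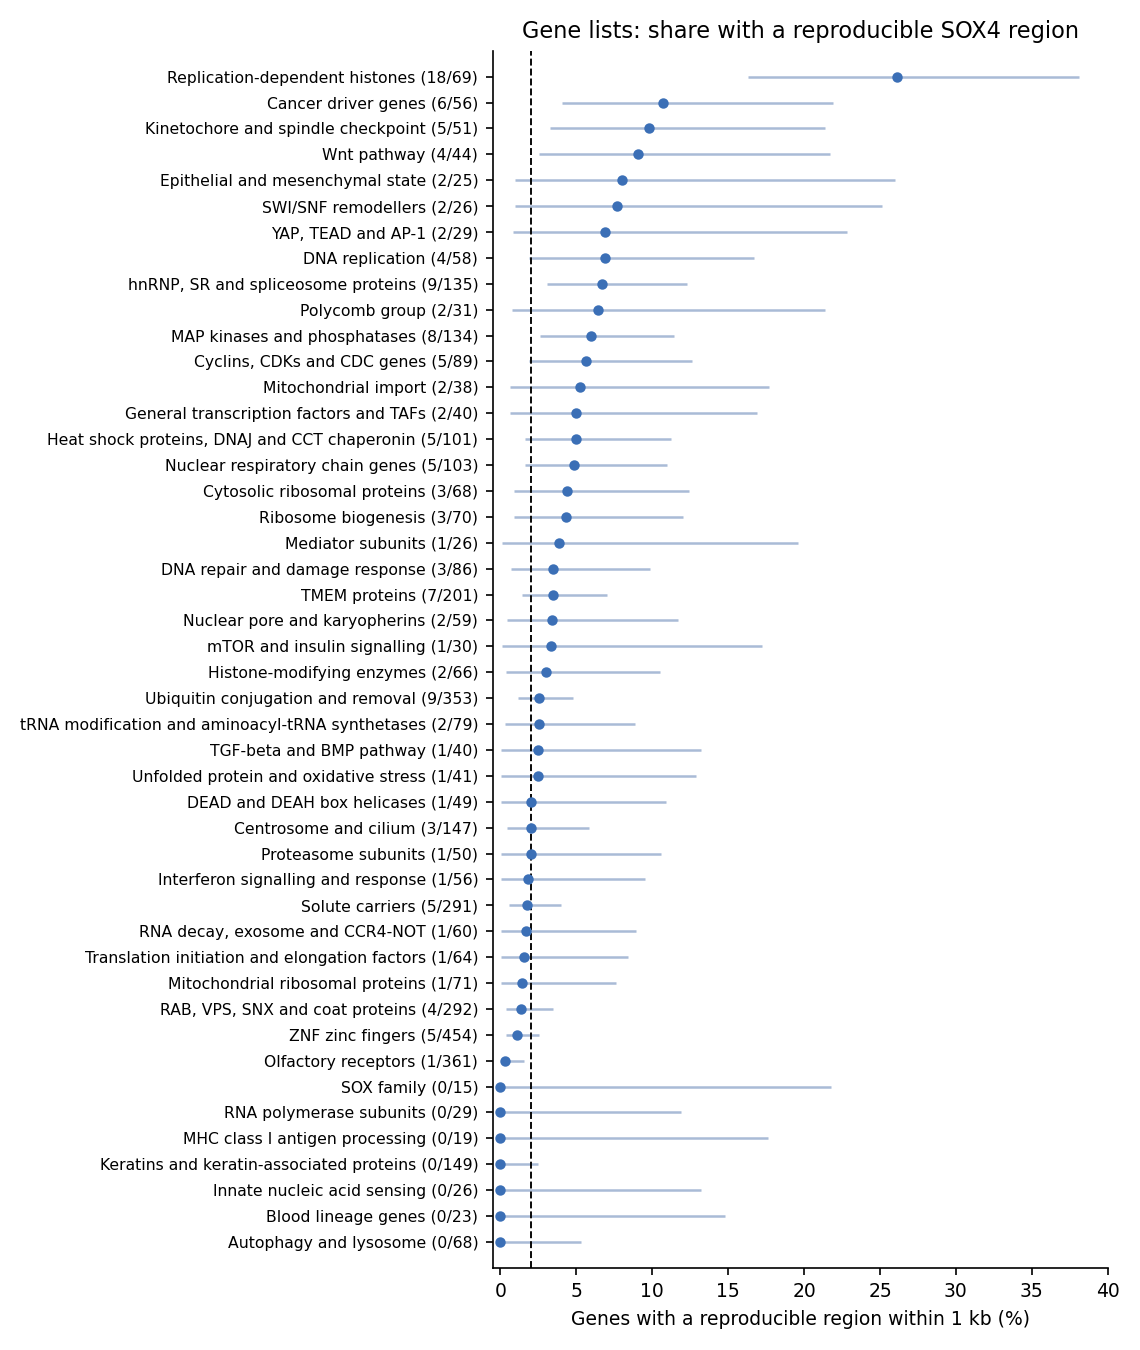
Share of the coding genes of each list with a member within 1 kb (x axis, percent) for the 46 gene lists (y axis, genes with a member of all genes in brackets), with exact 95% intervals and the 2.01% of all coding genes as a dashed line. Replication-dependent histones stand highest at 26.1%, and 7 lists have no gene near a member.

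Lists of chromosome segregation and DNA copying were also above the share of all genes, but only the kinetochore interval lay wholly above it. Kinetochore and spindle checkpoint genes had 5 of 51 (9.80%, 3.26 to 21.4%, against 2.01% of all coding genes). Besides SKA3 these were NUF2, a subunit of the NDC80 complex, with scores of 3.65, 7.63 and 6.66, MAD1L1, a checkpoint gene, with 13.4 and 7.44 in replicates 1 and 2, ZW10 and PMF1. DNA replication genes had 4 of 58 (6.90%, 1.91 to 16.7%), and 3 of them had all 3 libraries. CDC7, the kinase that fires replication origins, scored 5.57, 4.88 and 9, WDHD1 scored 8.08, 3.70 and 5.83, and RFC3 is given above. GMNN, which encodes the licensing inhibitor geminin, had replicates 2 and 3. Cyclin, CDK and CDC genes had 5 of 89 (5.62%, 1.85 to 12.6%). Among them were CDK12 with 26.6 and 14.2 in replicates 1 and 2 and CCNJ with 6.5, 3.31 and 5.59. DNA repair genes had 3 of 86 (3.49%, 0.725 to 9.86%), with CHEK1, a checkpoint kinase gene, in all 3 libraries at 3.54, 4.94 and 4.5.

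Lists of RNA processing and chromatin ranged from below to above the 2.01% of all coding genes. Splicing genes had 9 of 135 (6.67%). Besides RBM39 and HNRNPH3, RBM26 had all 3 libraries with 7.83, 4.65 and 9.11, and RBM4B, SRSF6, SRSF10, PRPF38B, PPIL1 and HNRNPA2B1 had 2 libraries. SWI/SNF remodelling genes had 2 of 26, PBRM1 in all 3 libraries with 6.36, 5.18 and 11.5, and SMARCC1 in replicates 2 and 3. The PBRM1 region also served GNL3, a nucleolar GTPase gene whose start lay 7 bp away. Polycomb genes had 2 of 31, MTF2 and the methyltransferase gene EZH2, which scored 7.31 and 6.05 in replicates 2 and 3. Ribosome biogenesis genes had 3 of 70 (4.29%), histone lysine-modifying enzymes 2 of 66 (3.03%), tRNA modification and synthetase genes 2 of 79 (2.53%), DEAD and DEAH box helicases 1 of 49 (2.04%) and RNA decay genes 1 of 60 (1.67%). RNA polymerase subunits had 0 of 29 (exact upper limit 11.9%).

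Cancer driver genes had 6 of 56 (10.7%, 4.03 to 21.9%), against 2.01% of all coding genes. This was the highest share after the histones, and 1 of the 6 had all 3 libraries. Over all members 80.4% had 2 libraries. Among them, NRAS, which encodes a small GTPase of growth signalling, scored 4.55 and 8.28 in replicates 1 and 3, and MCL1, which encodes an inhibitor of cell death, scored 5.92 and 5.11 in the same libraries. The Wnt list had 4 of 44 (9.09%, 2.53 to 21.7%). In it, DVL2 scored 7.89 and 11.3 in replicates 2 and 3. PYGO2 scored 4.28 and 13.4 in replicates 1 and 3, and the others were CTNNB1 and DKK1. MAP kinase and phosphatase genes had 8 of 134 (5.97%, 2.61 to 11.4%). MAPK14, which encodes the kinase p38 alpha, was the only one of these 8 in all 3 libraries, with 15.2, 4.65 and 5.83. Of the epithelial and mesenchymal genes 2 of 25 (8%, 0.984 to 26%) were near a member, ITGB1 and VIM. VIM scored 2.85 and 4.82 in replicates 1 and 3. The transforming growth factor beta list had 1 of 40 (2.5%, 0.0633 to 13.2%), the SMAD inhibitor gene SKIL, with 7.03 and 5.53 in replicates 1 and 3. The intervals of the epithelial and mesenchymal list and of the transforming growth factor beta list included the share of all genes.

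The heat shock, respiratory chain, ubiquitin and cytosolic ribosomal lists were also above the 2.01% of all coding genes, each with an interval that included it. Heat shock and chaperone genes had 5 of 101 (4.95%, 1.63 to 11.2%). These included HSPD1 and HSPE1, the mitochondrial chaperonin pair, through 1 region with 7.77 and 3.99 in replicates 1 and 3. Respiratory chain genes had 5 of 103 (4.85%, 1.59 to 11%), with ATP5PB at 17 and 8.83 and COX11 at 12.3 and 7.63 in replicates 1 and 2. Ubiquitin genes had 9 of 353 (2.55%, 1.17 to 4.78%). There RNF167 scored 25.2 and 16.0 in replicates 1 and 2 from a region it shared with the mitochondrial carrier gene SLC25A11. Cytosolic ribosomal protein genes had 3 of 68 (4.41%, 0.919 to 12.4%), with RPS19 at 22.4 and 14.2 in replicates 1 and 2. MHC class I antigen processing had 0 of 19 (exact upper limit 17.6%), innate nucleic acid sensing 0 of 26 (13.2%) and the SOX family 0 of 15 (21.8%). Keratin genes had 0 of 149 (2.45%), olfactory receptors 1 of 361 (0.277%), and interferon genes 1 of 56. With summits of any library, 5 of the 19 antigen processing genes (26.3%) and 7 of the 26 sensing genes (26.9%) had a region. This share was 13.9% over all coding genes, 7.14% in the interferon list and 0% in the SOX family.

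These lists covered 132 of the 336 member genes, and 30 of the 46 lists lay above the share of all genes. List genes share regions, families and neighbourhoods, so the intervals treat as separate some genes that are not. Without a control library, signal at open promoters that does not depend on the antibody's target cannot be told apart from SOX4 binding. A region of any number of libraries lay near 13.9% of all coding genes. Leaving out replicates 1, 2 and 3 in turn left 6, 13 and 5 of the 69 histone genes and 1, 4 and 3 of the 51 kinetochore genes, and requiring all 3 libraries left 2 of each.

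Some members lay beside more than 1 gene. At least 2 coding genes lay within 1 kb of 64 of the 271 members (23.6%, 18.7 to 29.1%), against 381 of 1822 regions of 1 library (20.9%, 19.1 to 22.9%), which did not pass Fisher's exact test (two-sided, adjusted p = 0.302). With regions within 500 bp the shares were 21.5% and 14.8% (exact adjusted p = 0.0167). Regions, not cultures, are the units here too. Most regions of 1 library came from replicate 3, so sharing between libraries and library of origin cannot be told apart. In 31 of the 64 the genes started head to head without overlap, with a median of 138 bp between the starts, and the midpoint fell between the starts in 11 of these 31. Of the 31, 6 had all 3 libraries. They were MRPL57 with SKA3, PBRM1 with GNL3, NUF2 with RGS5, WDHD1 with SOCS4, MARCHF7 with BAZ2B, and CIP2A, an inhibitor of the phosphatase PP2A, with DZIP3. The MARCHF7 and BAZ2B starts were 64 bp apart, and their region scored 11.2, 7.63 and 4.57, with the CGCG element centred 3.5 bp inside BAZ2B. A long non-coding RNA gene lay within 1 kb of 63 members (23.2%), against 25% of regions of 1 library, and microRNA genes MIR3917, MIR484 and MIR933 near 1 member each.

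Members were uneven over the chromosomes. Chromosome 1 held 71 of the 271 (26.2%) with 12.3% of the coding genes, and 4.17% of its coding genes (3.35 to 5.13%) had a member. Chromosome 13 had the highest share, 22 of 338 genes (6.51%, 4.12 to 9.69%), among them SKA3, MRPL57, RFC3, HSPH1, UPF3A and RBM26. Chromosome 10 had 3.68%, chromosome 19 had 6 of 1451 (0.414%, 0.152 to 0.898%) and chromosome 22 had 0 of 451 (exact upper limit 0.815%). All summits were uneven in a like way. Chromosome 1 took 22.6%, 24.8% and 18.2% of the summits of replicates 1, 2 and 3 on the 19 autosomes, and chromosome 19, with 8.67% of the coding genes, took 3.44%, 1.76% and 2.43%. DNA copy number of the line was not analysed here, and its part in these shares was not tested.

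**Figure D5:**
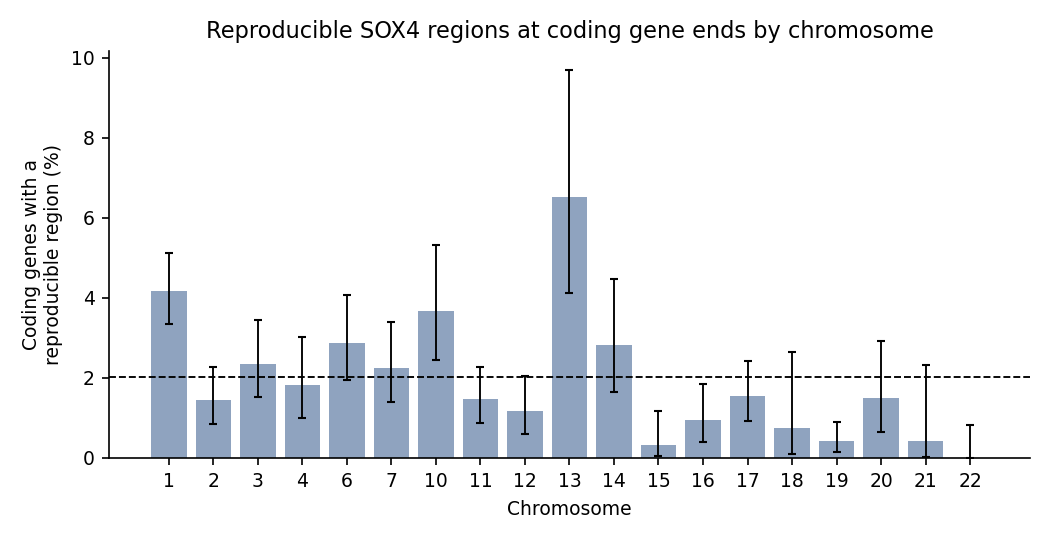
Share of coding genes with a member within 1 kb (y axis, percent) on each of the 19 autosomes used (x axis), with exact 95% intervals and the 2.01% of all coding genes as a dashed line. Chromosomes 13, 1 and 10 lie above the line with their whole intervals, and chromosomes 15, 16, 19 and 22 lie below it.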

How the data were processed

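The authors deposited 1 list of summits of 1 bp per library, each with the −log10 of its p-value or q-value as MACS2 gives it (the sources used here do not say which). BWA, SAMtools and MACS2, without versions, and the build hg19 are named per the submitters' processing notes, but the highest summit on chromosome 17, at 83247361, and the contig names are those of GRCh38, which was used. Gene ends came from the RefSeq table of GRCh38.p14 and strand and sequence from its promoter table, which gave a strand to 13634 of 16729 coding genes and 303 of 336 member genes. No exon, intron or untranslated region was distinguished. Summits were joined, matched to genes and searched for motifs with Python 3.11.15, pandas 2.3.3, numpy 2.4.6 and SciPy 1.17.1, and the steps were tested on simulated data. Regions of at least 2 libraries were compared with regions of 1 library by 2 two-sided Fisher's exact tests with Benjamini-Hochberg adjustment over both. The members, gene lists and motifs were chosen with earlier results of these data known. The text names the 20 members of 3 libraries with the best worst rank as a percent of each list, at most 5 genes of each list (regions of 3 libraries first, then by distance), the regions beside the 1 kb limit and pairs sharing a region of 3 libraries. Other list members and the genes of regions nearer to the end, on chromosome 13 or with microRNA genes were chosen with their values known. Alternatives changed the gap, the distance, the libraries required, the score and the chromosomes, and left out each library. Counts of the CGCG element around regions were added after motif shares had been seen. A result for 1 gene is not reported here.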

Additional observations from a re-analysis of the deposited data

How the results depend on the processing

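The number of regions depended on the rule for joining and sharing. It was 174 with a gap of 100 bp, 53 with all 3 libraries required, 106 with summits at or above the median score of their list and 419 with all autosomes. The number of genes was 216, 66 and 133 under the first 3 of these settings. Leaving out 1 library gave 88 to 148 regions, the fewest without replicate 3, and 113 to 186 genes. A gap of 500 bp and distances of 500 bp and 2 kb kept the number of regions within 1.5 times. The share at gene starts differed from that of regions of 1 library by -2.15 percentage points within 500 bp (exact adjusted p = 0.0483), and by -2.6 to 0.0277 points when 1 library was left out. The difference turned positive only without replicate 1, and the cause was not tested. The share beside at least 2 coding genes differed by 6.75 points within 500 bp (exact adjusted p = 0.0167). The share of members with the CGCG element within 100 bp was 35.3%, then 22.2% with a gap of 500 bp, 48.7% with 100 bp and 14.8 to 58.3% when 1 library was left out, lowest without replicate 2. The cause was not tested. With all 3 libraries required, the counts of 32 of the 46 gene lists moved by over 1.5 times, as did 30 without replicate 3 and 27 without replicate 1, so single lists of a few genes rest on few regions. No paired analysis was possible because there is 1 group of libraries. Read depth, which limits what each list could show, is unknown.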
